A study of Sus scrofa with 24 samples.

Results

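The circular RNAs (circRNAs) made from QKI and WDR33 in pig spleen are described here. A circRNA is a closed loop that forms when the end of an exon is spliced back to the start of the same or an earlier exon, and it is counted by reads across that back-splice junction. A circRNA was assigned to QKI or WDR33 when both of its ends lay within 1 base of exon ends of that gene, on the same strand, in the RefSeq annotation of Sscrofa11.1. By this rule 4 of the 3000 circRNAs in the count table belonged to the pair of genes, 2 to QKI (circRNA_00050 and circRNA_00054) and 2 to WDR33 (circRNA_15747 and circRNA_15749). No other circRNA of the table overlapped either gene. Of the 3000 circRNAs, 2848 had a host gene, and these came from 1675 genes, of which 613 had 2 or more circRNAs.

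The samples were spleens of healthy Meishan pigs at 8 ages after birth, named by the day (1d, 7d, 14d, 21d, 28d and 35d, then 120d and 180d), with 3 different pigs at each age and 24 libraries in all. The pigs received no treatment, and they differed by design only in age. A spleen is a mixture of red and white blood cells at many stages of maturation and of stromal cells, so that fewer cells of a type and less RNA per cell cannot be told apart in these data.

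QKI encodes Quaking, an RNA-binding protein of the STAR family that recognises ACUAAY-type motifs. It regulates splicing and mRNA stability, and in human cells it promotes the formation of circRNAs when its motifs lie in the introns on either side of the circularised exons. WDR33 encodes a WD40-repeat protein of the cleavage and polyadenylation specificity factor, the complex that cuts the 3′ end of most mRNAs. In human cells WDR33 contacts the AAUAAA polyadenylation signal together with CPSF30.

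All 4 circles began and ended exactly on exon ends (0 bases off), with AG before the first exon and GT after the last exon. The ends of the QKI circles were in 10 of 10 annotated QKI transcripts, and those of the WDR33 circles in 7 of 7 annotated WDR33 transcripts. Only the back-splice junctions were counted, and the inside of the circles was not measured. The lengths, residues and reading frame given below assume that all annotated exons between both ends are kept and all introns removed. The QKI gene lies on the minus strand of chr1:4732575-4883386. circRNA_00050 spans chr1:4775755-4843415 and joins the end of exon 4 of 8 to the start of exon 2 (NM_001007195.1), a circle of 404 nt. circRNA_00054 spans chr1:4822372-4843415 and joins the end of exon 3 to the same start of exon 2, a circle of 260 nt. Both lie wholly in coding sequence, for residues 48 to 182 and residues 48 to 134 of a protein of 341 residues, so that the larger circle is the smaller one plus exon 4. The 30 bases on each side of their back-splice are shown because only the lower-case part tells the pair apart, with the shared start of exon 2 in capitals:
circRNA_00050: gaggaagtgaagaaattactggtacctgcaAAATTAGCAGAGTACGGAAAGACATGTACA
circRNA_00054: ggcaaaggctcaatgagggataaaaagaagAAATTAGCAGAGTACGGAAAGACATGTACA

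The WDR33 gene lies on the plus strand of chr15:59519832-59639050. circRNA_15747 spans chr15:59562524-59570339 and joins the end of exon 7 of 22 to the start of exon 2 (XM_021075457.1), a circle of 747 nt. circRNA_15749 spans chr15:59564532-59567946 and joins the end of exon 5 to the start of exon 3, a circle of 270 nt that lies inside circRNA_15747 and shares neither end with it. circRNA_15747 holds the start codon of WDR33 after 23 non-coding bases, and its coding part covers residues 1 to 242 of a protein of 1336 residues, while circRNA_15749 covers residues 69 to 158. Read round the circle from that start codon, the frame of circRNA_15747 ran 243 codons and met a TAG that began after the first 5 bases past the junction. No data on translation were used here. The sequences below show the back-splice of circRNA_15749 with the start of exon 3 in capitals, and the end of exon 7 and the first coding bases of circRNA_15747 with the start codon in capitals:
circRNA_15749: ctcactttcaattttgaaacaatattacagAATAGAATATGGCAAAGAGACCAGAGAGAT
circRNA_15747, last bases of exon 7 (chr15:59570310-59570339): ttcgttgccatgaggaaagaattctccgag
circRNA_15747, first coding bases (chr15:59562547-59562576): ATGgctacagaaattggttctcctcctcgt

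**Figure D1:**
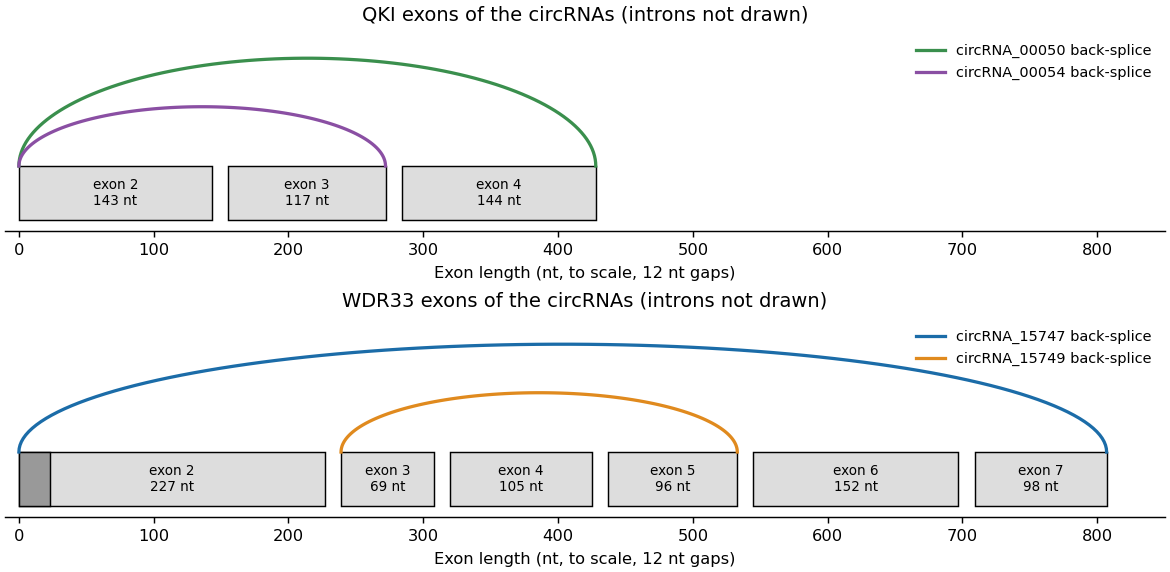
Annotated exons of QKI (upper) and WDR33 (lower) between the ends of the 4 circRNAs, drawn to scale along the x axis in nt with introns left out. Arcs join the exon end and the exon start of each back-splice, and the dark block is the 23 non-coding bases of WDR33 exon 2. The QKI circles of 404 and 260 nt share the start of exon 2, whereas the WDR33 circle of 270 nt lies inside that of 747 nt.

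The circles differed more in their genomic span than in their spliced length. circRNA_00050 spanned 67661 bases of genome, and 99.1% of the 3000 circRNAs spanned less. The spans were 21044 bases for circRNA_00054, 7816 for circRNA_15747 and 3415 for circRNA_15749, around a median of 6887 for the table. The introns before and after the circle were 39684 and 28698 bases for circRNA_00050, 39684 and 46473 for circRNA_00054, and 42312 and 45407 for circRNA_15747. Those of circRNA_15749 were short, at 1781 and 455 bases. Within 500 bases outside its ends, repeats covered 70.6% of the sequence beside circRNA_15749, and 93.9% of the 3000 circRNAs had less. The same share was 26.5% for circRNA_00050, 31.0% for circRNA_00054 and 24.3% for circRNA_15747, against a median of 40.8%. The value of circRNA_15749 depended on the window. It was 78.0% within 200 bases, where 97.5% of the circRNAs had less, and 40.0% within 1000 bases, where 44.3% had less. The intron of 455 bases after this circle is shorter than the windows of 500 and 1000 bases.

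Since QKI is itself an RNA-binding protein, the motifs ACTAAC and ACTAAT were searched on the transcript strand in the 500 bases of genome outside each end. A site cannot match both motifs. At least 1 match occurred beside 27.9% of the 3000 circRNAs, and downstream of 14.6%. circRNA_15747 had 3 matches downstream, 9, 190 and 349 bases after the end of exon 7, and none upstream. Only 2 of the 3000 circRNAs (0.0667%) had 3 or more matches downstream, and 13 (0.433%) had one in the first 20 bases after the last exon, counts that were chosen after the matches of circRNA_15747 were seen. circRNA_00054 had 1 match 338 bases downstream, and circRNA_00050 and circRNA_15749 had none in these windows. On the opposite strand, where 38.5% of circRNAs had a match, circRNA_00050 had 1 on each side, circRNA_00054 had 1 upstream and 2 downstream, and the WDR33 circles had none. The match nearest to a circle is shown with the last 15 bases of exon 7 and the first 30 of the intron, the motif in capitals:
circRNA_15747 (chr15:59570325-59570369): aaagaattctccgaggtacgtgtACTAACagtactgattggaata

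The library totals of back-splice reads ranged between 16273 and 23752 at 1d and between 37023 and 57890 at 180d, with the highest total, 87867, at 120d. To compare libraries, counts were scaled with TMM factors to a common library size, so that a scaled count gives a level relative to the other circRNAs of the table. The table holds no count of 1, and whether single reads were listed as 0 is not given in the sources used here. If a listed 0 stands for 0 or 1 read, the 95% upper limit on the expected reads behind it is 4.74, for counting error only. The 4 circRNAs differed in depth. circRNA_15747 had 707 reads over all libraries and a mean scaled count of 30.8, rank 209 of 3000, and was never listed at 0. circRNA_15749 had 170 reads (mean 5.82, 3 libraries at 0), circRNA_00050 had 154 (mean 5.89, 2 libraries at 0) and circRNA_00054 had 108 (mean 3.89, 4 libraries at 0), around a table median of 6.88. Statements on these 3 circles therefore rest on few reads.

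circRNA_15747, the larger WDR33 circle, fell with age relative to the other circRNAs. In the first 4 stages the 3 pigs had 21, 34 and 42 reads (1d), 41, 19 and 39 reads (7d), 26, 31 and 22 reads (14d), and 49, 26 and 40 reads (21d). In the later stages they had 22, 28 and 10 reads (28d), 21, 30 and 31 reads (35d), 45, 34 and 49 reads (120d), and 11, 12 and 24 reads (180d). The raw counts thus lay between 10 and 49 reads throughout, while the library totals were higher in the older pigs. Scaled to library size, the levels were 41.8, 56.0 and 63.3 (1d), 60.1, 34.6 and 62.3 (7d), 30.8, 32.1 and 27.4 (14d), and 51.2, 22.6 and 29.6 (21d). The scaled levels of the later pigs were 21.1, 24.6 and 12.7 (28d), 22.7, 21.3 and 23.0 (35d), 21.2, 19.7 and 23.7 (120d), and 11.7, 8.62 and 18.0 (180d). Every pig at 14d, 28d, 35d, 120d and 180d was below every pig at 1d, whereas the pigs at 7d and 21d overlapped those at 1d.

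The mean scaled level of circRNA_15747 was 53.7 ± 10.9 (1d), 52.3 ± 15.4 (7d), 30.1 ± 2.39 (14d), 34.4 ± 14.9 (21d), 19.5 ± 6.11 (28d), 22.4 ± 0.938 (35d), 21.5 ± 2.03 (120d) and 12.8 ± 4.77 (180d) (SD, n = 3 each). Among all 28 pairs of stages the ranges did not overlap in 17, and in each of them the older stage was lower. Such pairs were not counted for the circRNAs of other genes, so that this number has no background beside it. In order of level, 1d and 7d lay together at the top, 14d and 21d followed and overlapped each other, 28d, 35d and 120d formed an overlapping group that the widely spread 21d pigs also reached into, and 180d was lowest, with a range that overlapped that of 28d.

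Tested against 1d with edgeR's quasi-likelihood test and Benjamini-Hochberg adjustment over 3000 circRNAs, circRNA_15747 was lower at 28d (log2 fold change -1.44, SE 0.32, adjusted p = 0.00784), at 35d (-1.27, SE 0.31, adjusted p = 0.0129), at 120d (-1.32, SE 0.30, adjusted p = 0.00306) and at 180d (-2.07, SE 0.33, adjusted p = 1.50e-05). The level at 180d was thus 0.239 times that at 1d. At 7d, 14d and 21d the log2 fold changes were -0.04, -0.84 and -0.67, and edgeR gave adjusted p = 0.998, 0.265 and 0.382. Over all circRNAs the median log2 fold change was 0.20 at 180d against 1d and between 0.00 and 0.26 in the other comparisons with 1d. A circRNA was called differentially expressed (DE) where the adjusted p was under 0.05 and the level changed at least 2-fold in either direction. Of the 4 circRNAs, circRNA_15747 was called at 28d, 35d, 120d and 180d, always lower, and the other 3 were called at none of the 7 stages. Over all circRNAs the share called was 1.57% for 28d (0.3% lower), 2.17% for 35d (0.267% lower), 6.1% for 120d (1.47% lower) and 9.3% for 180d (3.4% lower).

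**Figure D2:**
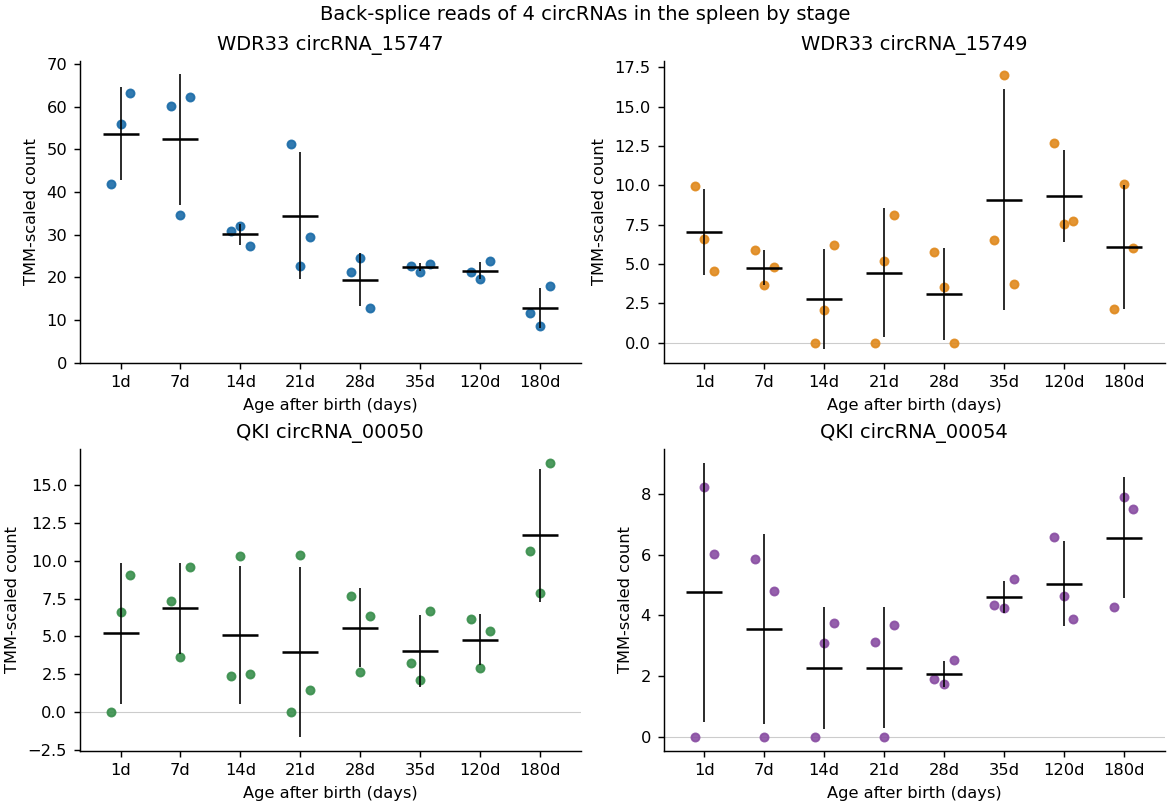
TMM-scaled back-splice counts (y axis) by age in days (x axis) of the 4 circRNAs. Points are single pigs, the horizontal bar is the mean of 3 pigs and the vertical line 1 SD either side. circRNA_15747 lay between 41.8 and 63.3 at 1d and between 8.62 and 18.0 at 180d, while the 3 other circles had overlapping values at these ages.

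At 7d, 14d and 21d, edgeR called 0 of the 4 circRNAs, and the DESeq2 test also called 0. Of all circRNAs, 0% were called for 7d, 0.0667% for 14d and 0.933% for 21d. Without adjustment, no circRNA of QKI or WDR33 passed 0.05 for 7d, and only circRNA_15747 passed it for 14d (unadjusted p = 0.00961, edgeR) and for 21d (unadjusted p = 0.0323, edgeR). Among the late stages, edgeR and DESeq2 called 0 of the 4 circRNAs at 120d against 35d (0% of all circRNAs), 0 at 180d against 35d (0.267%) and 0 at 180d against 120d (0%). The log2 fold change of circRNA_15747 was -0.05 (SE 0.31) at 120d against 35d, -0.79 (SE 0.34, unadjusted p = 0.0225, adjusted p = 0.413) at 180d against 35d and -0.75 (SE 0.33, unadjusted p = 0.0262, adjusted p = 0.831) at 180d against 120d, all with edgeR. Without adjustment, no circRNA of either gene passed 0.05 for 120d against 35d, and for 180d against 35d circRNA_00050 passed it as well (unadjusted p = 0.0447, edgeR).

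Over the whole course, the slope of circRNA_15747 was -0.26 log2 units per doubling of age (SE 0.04, 95% interval -0.34 to -0.19, adjusted p = 1.56e-06, edgeR). Its p was the 4th smallest among circRNAs with a negative slope, and its slope was the 100th lowest of the 3000. It also differed among the 8 stages in a test of all stages together (adjusted p = 5.38e-06, edgeR), as 8.97% of all circRNAs did. A slope below 0 was called for 5.77% of all circRNAs and one above 0 for 10.7%. Of the 4 circRNAs, 1 was called lower and 0 were called higher, as with DESeq2.

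This fall was relative to the other circRNAs. In reads per 1 M clean reads of the library, circRNA_15747 averaged 0.291 ± 0.0921 (1d), 0.394 ± 0.0931 (120d) and 0.147 ± 0.0666 (180d) (SD, n = 3 each), and the older pigs had more back-splice reads of most circRNAs. With clean reads as library size, the median circRNA had a log2 fold change of 1.27 at 180d against 1d and 1.99 at 120d against 1d. On that scale circRNA_15747 had a log2 fold change of -0.98 at 180d (adjusted p = 0.0614, edgeR) and 0.43 at 120d (adjusted p = 0.304, edgeR), and its slope was -0.03 (adjusted p = 0.599, edgeR) beside a median of 0.25 over all circRNAs. It thus lay below the median circRNA on both scales, but no longer passed the test against an unchanged level.

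**Figure D3:**
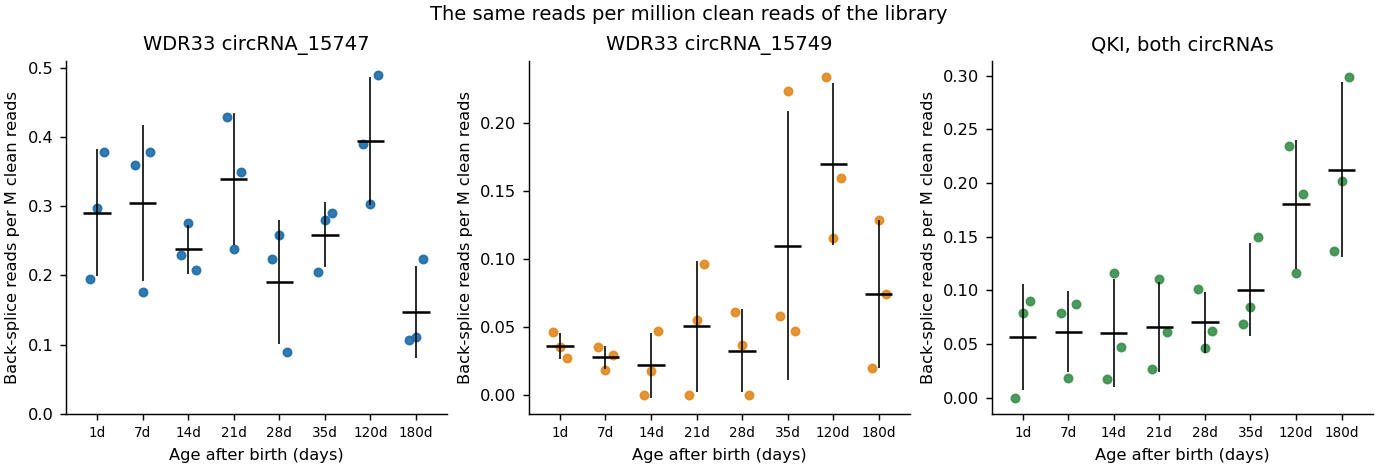
Back-splice reads per 1 M clean reads (y axis) by age in days (x axis) for circRNA_15747, circRNA_15749 and the sum of both QKI circRNAs. Points are single pigs, the horizontal bar is the mean of 3 pigs and the vertical line 1 SD. circRNA_15747 averaged 0.291 at 1d and 0.147 at 180d, with overlapping pigs, and QKI averaged 0.0564 at 1d and 0.212 at 180d.

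The calls at single stages also depended on which libraries were used. In the 17 libraries in which at least 0.96 of the bases were valid, circRNA_15747 was still called at 28d and 180d, but not at 35d (log2 -1.23, adjusted p = 0.470, edgeR) or 120d (log2 -1.34, adjusted p = 0.107, edgeR), where fewer pigs were left. The call at 28d was lost without pig 3 of 1d or pig 3 of 28d (adjusted p = 0.0577 and 0.0525, edgeR). The call at 35d was lost without pig 2 or 3 of 1d or pig 2 of 35d (adjusted p between 0.0641 and 0.0892, edgeR).

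circRNA_15749, the smaller WDR33 circle, had 5, 4 and 3 reads (1d), 4, 2 and 3 (7d), 0, 2 and 5 (14d), 0, 6 and 11 (21d), 6, 4 and 0 (28d), 6, 24 and 5 (35d), 27, 13 and 16 (120d) and 2, 14 and 8 (180d). Its scaled level averaged 6.07 ± 3.96 at 180d, against 7.02 ± 2.74 at 1d (SD, n = 3 each), with overlapping pigs. It was highest at 35d, where 1 pig of 3 reached 17.0, and at 120d, with 9.33 ± 2.93. In scaled counts the 120d pigs lay above every pig of 7d, 14d and 28d, and these were the only 3 of 28 pairs of stages that did not overlap. This number too has no background over all circRNAs. The log2 fold change at 180d against 1d was -0.12 (95% interval -1.70 to 1.47, adjusted p = 0.950, edgeR), and the slope was 0.09 per doubling of age (interval -0.09 to 0.27, adjusted p = 0.566, edgeR). These intervals include no change as well as a fall or a rise of more than 2-fold at 180d.

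**Figure D4:**
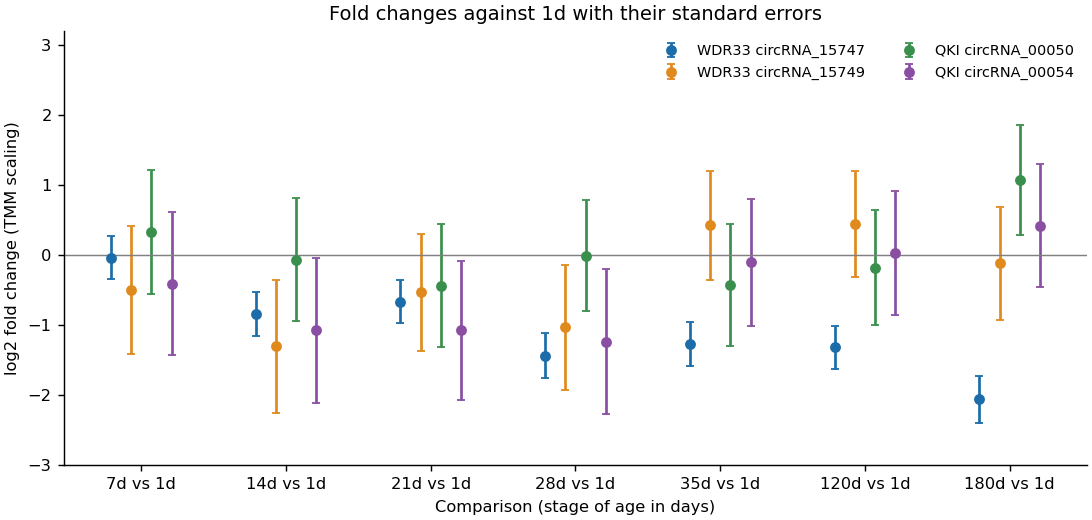
Log2 fold changes of the 4 circRNAs (y axis, TMM scaling) at each later stage against 1d (x axis), with bars of 1 standard error from edgeR's fit. circRNA_15747 lay at -1.44, -1.27, -1.32 and -2.07 at 28d, 35d, 120d and 180d with SE near 0.3, and the bars of the 3 other circles were longer, with SE between 0.75 and 1.04.

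The WDR33 circles come from the same gene, with circRNA_15749 wholly inside circRNA_15747, and the share of each in the reads of the gene does not depend on how libraries are scaled. circRNA_15749 made up 19.4% of all 877 WDR33 back-splice reads. Pooled over the 3 pigs of a stage, its share was 11.01% (1d), 8.33% (7d), 8.14% (14d), 12.9% (21d), 14.3% (28d), 29.9% (35d), 30.4% (120d) and 33.8% (180d). Single pigs moved these values: the share was 3.39% at 14d without pig 3, 20.5% at 21d without pig 1, 17.5% at 35d without pig 2 and 22.2% at 180d without pig 2. The exact 95% binomial interval was 23.0% to 46.0% at 180d, against 5.82% to 18.4% at 1d, and covers counting error only. In single pigs the share was 15.4%, 53.8% and 25% at 180d, against 19.2%, 10.5% and 6.67% at 1d, so that the pigs of these ages overlapped.

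Over the 24 pigs the share of circRNA_15749 was correlated with log2 age, with Pearson's r = 0.522 (permutation p = 0.00602, two-sided, adjusted over 2 genes 0.0120) and Spearman's rho = 0.642 (permutation p = 0.00112, adjusted 0.00224). Without the 1d pigs, which lay farthest from the median age, r was 0.630, and it ranged between 0.453 and 0.585 when single pigs were left out. Within groups of libraries of similar quality r stayed above 0 but did not pass the test. It was 0.325 (permutation p = 0.195) with rho = 0.336 (permutation p = 0.185) in the 17 libraries in which at least 0.96 of the bases were valid, and 0.334 (exact permutation p = 0.498) with rho = 0.551 (exact permutation p = 0.210) in the other 7, where few libraries limit the test. Tested against the other circRNA of the gene with edgeR, the share of circRNA_15749 had a slope of 0.29 log2 units per doubling of age (unadjusted p = 0.00124), which did not pass adjustment over 1786 circRNAs (adjusted p = 0.170). At 180d against 1d it was 1.55 log2 units (unadjusted p = 0.0395, adjusted p = 0.685, edgeR), and it turned to -0.45 when counts were thinned to the lowest library total. The slope of the share lay between 0.12 and 0.36 over 29 alternatives.

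**Figure D5:**
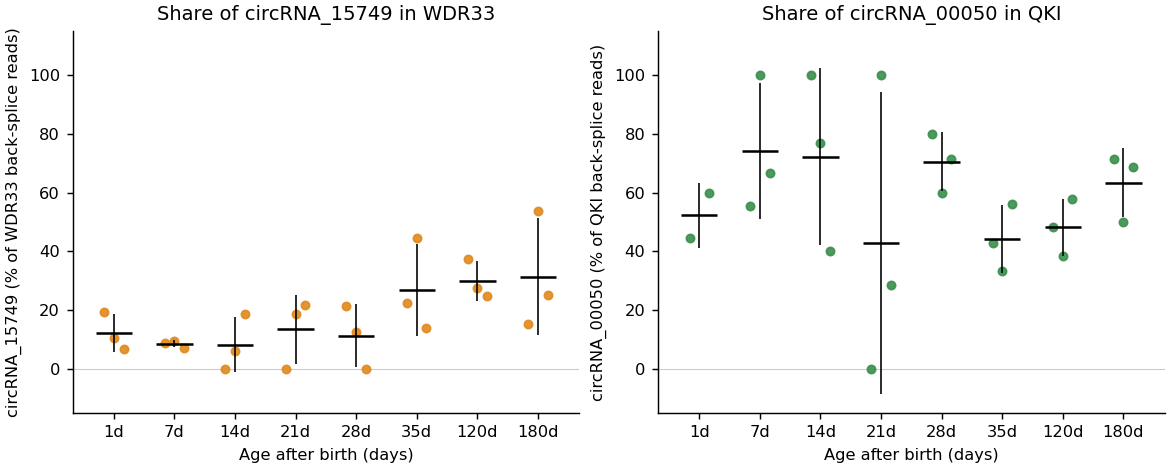
Share of circRNA_15749 in the WDR33 back-splice reads (left) and of circRNA_00050 in the QKI back-splice reads (right), in % on the y axis, by age in days on the x axis. Points are single pigs, the horizontal bar is their mean and the vertical line 1 SD. The pooled WDR33 share was 33.8% at 180d (22.2% without pig 2) and 11.01% at 1d, with single pigs that overlapped, and the QKI share showed wide scatter at low counts.

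Summed over both circles, WDR33 had a mean scaled count of 36.9, rank 236 of 1675 host genes, and circRNA_15747 gave most of it. The sum averaged 18.5 ± 4.83 at 180d, against 62.4 ± 8.04 at 1d (SD, n = 3 each), with no overlap between the pigs. WDR33 was lower at 28d (log2 -1.43, adjusted p = 0.00235, edgeR), 35d (-1.003, adjusted p = 0.0288, edgeR), 120d (-1.07, adjusted p = 0.00613, edgeR) and 180d (-1.73, SE 0.30, adjusted p = 3.03e-05, edgeR). Its slope was -0.21 per doubling of age (SE 0.04, adjusted p = 1.95e-05, edgeR), and the stages differed together (adjusted p = 3.34e-05, edgeR). Of all host gene sums, 9.37% had a slope called lower and 13.8% one called higher, and at 180d against 1d 5.91% were called lower and 8.42% higher at an adjusted p under 0.05. With clean reads as library size the slope was 0.03 (adjusted p = 0.586, edgeR), beside a median of 0.26 over all host genes, and the value at 120d was 0.78 (adjusted p = 0.0489, edgeR), while those at 28d and 180d were no longer called (-0.56 each, adjusted p = 0.283 and 0.230, edgeR). On that scale 44% of host gene sums were called higher and 1.13% lower at 180d against 1d. In the libraries in which at least 0.96 of the bases were valid, the calls at 35d and 120d were lost (adjusted p = 0.416 and 0.240, edgeR), and the call at 35d was also lost without pig 2 or 3 of 1d or pig 1 or 3 of 35d (adjusted p between 0.0808 and 0.145, edgeR).

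The QKI circles had no called change relative to the other circRNAs, and their highest mean scaled levels were at 180d. circRNA_00050 had 0, 4 and 6 reads (1d), 5, 2 and 6 (7d), 2, 10 and 2 (14d), 0, 12 and 2 (21d), 8, 3 and 5 (28d), 3, 3 and 9 (35d), 13, 5 and 11 (120d) and 10, 11 and 22 (180d). Its scaled levels were 10.7, 7.91 and 16.5 at 180d, against 0, 6.58 and 9.04 at 1d, and the pigs overlapped. The 180d pigs lay above every pig of 28d, 35d and 120d, for which no background over all circRNAs was counted. Tested with edgeR, circRNA_00050 was not called at 180d against 35d (adjusted p = 0.535) or against 120d (adjusted p = 0.998). At 180d against 1d the log2 fold change was 1.07 (95% interval -0.47 to 2.62, adjusted p = 0.441, edgeR), and the slope was 0.09 (interval -0.08 to 0.27, adjusted p = 0.525, edgeR). With clean reads as library size it was called higher at 180d (log2 2.13, adjusted p = 0.0398, edgeR), as were 32.8% of all circRNAs, while 0.8% were called lower, and circRNA_00050, circRNA_00054 and circRNA_15749 were called higher in the slope, as were 64.6%.

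circRNA_00054, the QKI circle without exon 4, had 0, 5 and 4 reads (1d), 4, 0 and 3 (7d), 0, 3 and 3 (14d), 3, 0 and 5 (21d), 2, 2 and 2 (28d), 4, 6 and 7 (35d), 14, 8 and 8 (120d) and 4, 11 and 10 (180d). The scaled levels of every pig at 35d, 120d and 180d were above those of every pig at 14d, 21d and 28d, which gave the 9 of 28 pairs of stages that did not overlap. For this number as well, no background over all circRNAs was counted. At 1d the levels were spread between 0 and 8.23 and overlapped all other stages. The log2 fold change at 180d against 1d was 0.42 (95% interval -1.30 to 2.14, adjusted p = 0.828, edgeR), and the slope was 0.09 (interval -0.10 to 0.29, adjusted p = 0.570, edgeR).

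Summed, QKI had 262 reads and averaged 18.0 ± 4.82 scaled counts at 180d, against 10.2 ± 8.82 at 1d (SD, n = 3 each), with a log2 fold change of 0.75 (95% interval -0.39 to 1.88, adjusted p = 0.440, edgeR). The lowest 180d pig, at 14.9, was above every pig of 14d, 21d, 28d, 35d and 120d, and below the highest pigs of 1d and 7d. Such ranges were not counted for other host genes. With edgeR the QKI sum was not called at 180d against 35d (adjusted p = 0.469) or against 120d (adjusted p = 0.899). The slope of QKI was 0.08 (SE 0.07, adjusted p = 0.434, edgeR), and without the 180d stage it was -0.04. With clean reads as library size, the slope was 0.29 (adjusted p = 5.43e-04, edgeR) and the value at 180d 1.88 (adjusted p = 0.0137, edgeR), beside medians of 0.26 and 1.30 over all host genes. On that scale the slope of QKI was thus close to that of the median host gene. circRNA_00050 made up 58.8% of the QKI reads (exact 95% binomial interval 52.6% to 64.8%). Its share had no detectable relation with age at this depth (r = -0.084, permutation p = 0.705, 23 pigs, since the first 1d pig had no QKI read), and its slope within the gene was -0.01 (adjusted p = 0.999, edgeR).

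The 2 genes did not follow each other: over the 24 pigs, the log2 levels of QKI and WDR33 had r = -0.159, given as a description since all points share library scaling. The host genes most like WDR33, by Pearson's r over the 24 libraries among 866 host genes with a mean scaled count of at least 10, were PPIL4 (r = 0.868), CCT3 (0.859), ZZZ3 (0.820), CDK13 (0.808) and BTBD7 (0.799), where the median host gene had -0.13. PPIL4 encodes a peptidyl-prolyl isomerase with an RNA-recognition motif, CCT3 a subunit of the TRiC chaperonin and CDK13 a cyclin K-dependent kinase. All 5 had negative slopes past the test, between -0.41 (BTBD7) and -0.13 (PPIL4). They were chosen for likeness to WDR33, which itself fell in the same libraries, so that these slopes are no separate evidence. With clean reads as library size the slopes of PPIL4, CCT3, ZZZ3 and CDK13 were above 0. The call of PPIL4 was kept under 35 of 42 alternatives and was lost without the 7d or 180d stage (adjusted p = 0.0528 and 0.224, edgeR), after thinning (0.0591) and without pig 2 of 1d or pig 2 of 180d (0.0534 and 0.0566). That of CDK13 was kept under 39 and was lost without 180d (adjusted p = 0.0572, edgeR). In the libraries with valid bases of at least 0.96 both were lost (adjusted p = 0.120 for PPIL4 and 0.0549 for CDK13, edgeR). The host genes most like QKI were DPP8 (r = 0.719), ZC3H15 (0.698), SSH2 (0.665), PTPN9 (0.599) and ZEB2 (0.586), beside a median of 0.03 over 867 genes. Of these, SSH2, which encodes a cofilin phosphatase, and PTPN9, a tyrosine phosphatase, had positive slopes past the test (0.28 and 0.15). The call of SSH2 was lost in the libraries with valid bases of at least 0.96 and after thinning (adjusted p = 0.120 and 0.308, edgeR). That of PTPN9 was lost without the 180d stage (adjusted p = 0.0780, edgeR). The likeness to QKI rested partly on the 1d libraries, without which r was 0.460 for DPP8 and 0.354 for ZEB2.

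Other genes of RNA processing were looked at through lists of known factors. Of 23 cleavage and polyadenylation factors, the group of WDR33, 6 had a circRNA in the table, and in the slope with age 1 was lower and 0 were higher (9.37% and 13.8% of all host genes). It was NUDT21, the small subunit of cleavage factor I, with a slope of -0.08 (adjusted p = 0.0254, edgeR), which turned to 0.16 with clean reads as library size. NUDT21 was not called in the libraries with valid bases of at least 0.96 (adjusted p = 0.386, edgeR). It kept the call under 32 of 42 alternatives, and lost it without the 7d, 120d or 180d stage (adjusted p = 0.0598, 0.157 and 0.241, edgeR) and without any of 5 single pigs, which were pig 1 of 1d, pigs 1 and 3 of 120d and pigs 2 and 3 of 180d (adjusted p between 0.0506 and 0.0707, edgeR). PAPOLA, the poly(A) polymerase, had a slope of 0.06 (adjusted p = 0.0875, edgeR), PPP1CB, a phosphatase catalytic subunit, 0.10 (adjusted p = 0.340, edgeR), and FIP1L1, a partner of WDR33 in the same complex, -0.05 (adjusted p = 0.546, edgeR). No factor of this list passed at 180d against 1d, where 8.42% of all host genes were called higher and 5.91% lower. The median slope of the 6 factors was 0.01, beside 0.02 over all host genes. On the scale of clean reads 72.8% of all host genes were called higher with age, and so were all 6 of these factors, 14 of the 16 splicing regulators and 6 of the 8 spliceosome core factors described next.

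Of 62 splicing regulators, the group of QKI, 16 had a circRNA, and 2 were called higher with age and 0 lower (13.8% and 9.37% of all host genes). PTBP3, a polypyrimidine tract-binding protein, averaged 108 ± 10.4 scaled counts at 180d, against 45.8 ± 12.9 at 1d (SD, n = 3 each), with a slope of 0.19 (adjusted p = 4.48e-07, edgeR). It was the only one of the list called at 180d (log2 1.22, adjusted p = 8.28e-05, edgeR), where 8.42% of all host genes were called higher and 5.91% lower. With clean reads as library size its slope was 0.42, beside a median of 0.26 over all host genes. HNRNPM had a slope of 0.13 (adjusted p = 0.0245, edgeR), which kept the call under 33 of 42 alternatives. MATR3 had 0.04 (adjusted p = 0.0861, edgeR) and HNRNPLL -0.16 (adjusted p = 0.166, edgeR). The median slope of the 16 regulators was 0.03.

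Of 51 spliceosome core factors 8 had a circRNA, and 0 were called higher with age (13.8% of all host genes). The slopes of DHX16 and AQR, a pair of helicases, and of EFTUD2, a GTPase of the U5 particle, were 0.11, 0.11 and -0.11 (adjusted p = 0.124, 0.160 and 0.267, edgeR).

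Of 17 factors of circRNA export and turnover 3 had a circRNA, and 1 was lower with age and 0 higher (9.37% and 13.8% of all host genes). AGO2, the slicing Argonaute, averaged 3.48 ± 1.54 scaled counts at 180d, against 13.7 ± 3.16 at 1d (SD, n = 3 each), with a slope of -0.25 (adjusted p = 0.00221, edgeR) and a log2 fold change at 180d of -1.95 (adjusted p = 0.0175, edgeR). Neither was called with clean reads as library size (slope -0.01, adjusted p = 0.914, and log2 -0.80, adjusted p = 0.307, edgeR) or in the libraries with valid bases of at least 0.96 (adjusted p = 0.108 and 0.240, edgeR). The value at 180d also lost its call after thinning (adjusted p = 0.118, edgeR) and without pig 2 of 1d or pig 2 of 180d (adjusted p = 0.0714 and 0.0874, edgeR). IGF2BP3, a reader of modified RNA, was also lower at 180d (log2 -2.65, adjusted p = 0.00363, edgeR, and -1.48, adjusted p = 0.0857, with clean reads), while its slope over all stages was -0.15 (adjusted p = 0.130, edgeR). METTL14, of the m6A methyltransferase, had a slope of -0.04 (adjusted p = 0.759, edgeR).

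Markers of the cell types of the spleen moved with age beside the WDR33 fall, as far as they have circRNAs. On the TMM scale 9.37% of all host genes had a slope called lower with age and 13.8% one called higher. Both measured host genes of the erythroid list (2 of 16) were lower with age on the TMM scale, with summed scaled counts of 45.9 to 59.5 at 180d, against 112 to 149 at 1d. Of the cell cycle list 11 of 18 were measured and 7 were lower with age, with sums of 117 to 149 at 180d, against 315 to 340 at 1d. Of the B and plasma cell list 3 of 13 were measured and 3 were higher with age, with sums of 78.6 to 106 at 180d, against 20.7 to 31.1 at 1d. Of the T and NK cell list 2 of 17 were measured and 1 was higher, with sums of 55.9 to 63.8 at 180d, against 18.6 to 20.002 at 1d. Of the list for macrophages, monocytes and granulocytes 2 of 13 were measured and 1 was higher, with sums of 54.4 to 92.6 at 180d, against 12.4 to 24.9 at 1d. When clean reads set the library size, most of the falls were lost: 1 erythroid gene was lower and 1 higher, and of the 11 cell cycle genes 0 were lower, 1 was higher and 8 had a slope above 0. The B and plasma cell genes (3 of 3), the T and NK cell genes (2 of 2) and the macrophage, monocyte and granulocyte genes (2 of 2) were all called higher on that scale, as were 72.8% of all host genes. No gene of the stromal list (0 of 15) had a circRNA in the table. The part of these shifts in the levels of the WDR33 and QKI circles was not tested.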

How the data were processed

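Spleen RNA of 24 Meishan pigs was sequenced after ribosomal RNA removal. The study's methods also name a removal of linear RNA with RNase R. With that step, clean reads do not stand for the depth of total RNA. The deposited values are whole-number counts of back-splice reads for 3000 circRNAs, made by the authors with BWA on Sscrofa11.1 and CIRI2, which keeps junctions with GT-AG splice signals, so that these signals were a condition of detection. FastQC, cutadapt and TopHat2 are also named in the submitters' processing notes. How these 3000 circRNAs were chosen is not given in the sources used here, and the labels and the study's methods name different extraction and library kits. Raw counts are used as deposited, with no filter. Host genes, exons and sequences come from the RefSeq annotation of the same build. Clean reads and the share of valid bases per library are those of the study's sequencing summary.

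Counts were fitted with edgeR 4.0.16 in R 4.3.3 (TMM, robust quasi-likelihood, 1 coefficient per stage or 1 slope on log2 age), with Benjamini-Hochberg adjustment over 3000 circRNAs or, for counts summed per gene, 1675 host genes. Shares were tested with diffSpliceDGE over 1786 circRNAs of genes with at least 2. The fit and the share test were tested on simulated data. DESeq2 1.42.0 and the other alternatives are given in the closing section. Intervals are the estimate ± 1.96 SE. Permutation tests used 100000 resamples, or all orders for 7 libraries. Normalized levels are counts per 38416 effective reads for circRNAs and per 36300 for gene sums.

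All circRNAs of both genes are described. Of each RNA processing list the 4 measured host genes with the smallest p in the slope are named, and of the host genes with a mean scaled count of at least 10 the 5 most alike to QKI and to WDR33 (Pearson's r of log2 CPM with a prior count of 2). For the spliceosome core list 1 of the 4 is not reported here. The genes, lists and tests were chosen with earlier results of these data known. The 3 pigs of a stage are separate animals. Replicate numbers were not taken as pairs across stages in the main fit. Deviations of libraries with the same number had a mean correlation of 0.00624 over 84 pairs. Counting error at few reads per circRNA also keeps such correlations low, so that this check cannot exclude a pairing. No libraries of a stage were duplicates (lowest chi-square per degree of freedom 1.55).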

Additional observations from a re-analysis of the deposited data

How the results depend on the processing

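The fold changes, slopes and shares of the circRNAs and sums of QKI and WDR33, the slopes of the named host genes and the values of AGO2, IGF2BP3 and PTBP3 at 180d were recomputed with other scalings (DESeq2 size factors, table totals or clean reads as library size), DESeq2's test, edgeR's low-count filter, libraries with valid bases of at least 0.96, library GC content as a covariate, counts thinned to the lowest total (16273), the replicate number as a block, another age scale, and without each stage or pig. Of the recomputed values 2646 kept their direction and their side of the threshold. Without a change of sign, 69 lost a call and 24 gained one. A further 42 changed sign, and some of these also lost or gained a call. circRNA_15747 was lower at 180d and had a negative slope in all of them, and passed the test in all but clean reads as library size. The low-count filter dropped circRNA_00054 and circRNA_15749, which have no value there. The share test was not run with DESeq2, the filter, the block or the covariate. Replicate block: no call on a circRNA of QKI or WDR33 changed, and circRNA_15747 had a slope of -0.26 (adjusted p = 1.78e-06, edgeR) in the blocked fit.

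With clean reads as library size, under which the median circRNA had a log2 fold change of 1.27 at 180d against 1d, 0 of the 4 circRNAs were called at 28d and at 35d, and 3 (circRNA_00050, circRNA_00054 and circRNA_15749, all higher) in the slope. At 180d 1 was called, circRNA_00050 (higher, 2.13) in place of circRNA_15747. circRNA_15747 then had log2 values of 0.066 at 7d, 0.22 at 21d and 0.43 at 120d against 1d and 0.60 at 120d against 35d, and circRNA_15749 had 1.02 at 180d against 1d. WDR33 had 0.17 at 35d, 0.78 at 120d and a slope of 0.031, and QKI a slope of 0.29. Other slopes turned to 0.049 (CCT3), 0.11 (CDK13), 0.12 (EFTUD2), 0.18 (FIP1L1), 0.089 (HNRNPLL), 0.10 (IGF2BP3), 0.19 (METTL14), 0.16 (NUDT21), 0.12 (PPIL4) and 0.0019 (ZZZ3). Only the library size was set otherwise than in the main fit. On this scale the median slope was 0.25 over all circRNAs and 0.26 over all host genes. Why the median rose with age per clean read was not tested.

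In the libraries with valid bases of at least 0.96, 0 circRNAs of the 4 were called at 35d and at 120d. There circRNA_00054 had -0.24 at 180d against 1d and a slope of -0.015, circRNA_15749 a slope of -0.0019, and the share slope of circRNA_00050 was 0.018. After thinning, 0 of the 4 were called at 28d, circRNA_15747 had 0.39 at 180d against 120d, circRNA_15749 a slope of -0.16, METTL14 one of 0.039, and the share values were 0.0040 (circRNA_00050, slope), 0.083 (circRNA_15747, 180d against 1d) and -0.45 (circRNA_15749, 180d against 1d). Without the 180d stage the slopes of circRNA_00050, QKI and DPP8 were -0.054, -0.038 and -0.0012, and without 1d that of METTL14 was 0.070. Each of these settings leaves fewer reads or pigs, and the cause was not tested further.

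Leaving out single pigs, values spanned 0 on the log2 scale for circRNA_15747 at 7d (-0.20 to 0.18) and at 120d against 35d (-0.12 to 0.0083), for circRNA_00054 (-0.089 to 0.99) and circRNA_15749 (-0.67 to 0.23) at 180d, and for the share slopes of circRNA_00050 (-0.037 to 0.0017) and circRNA_00054 (-0.025 to 0.033). The number of the 4 circRNAs called at 28d and at 35d was 0 to 1. The slope of circRNA_15747 stayed between -0.29 and -0.24. With windows of 200 and 1000 bases, the motif occurred beside 13.7% and 46.8% of all circRNAs, and circRNA_15747 had 2 and 4 matches downstream. By Spearman's rho, PPIL4, CCT3, ZZZ3 and CDK13 ranked 4, 5, 3 and 9 in likeness to WDR33 and BTBD7 32.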
